A study of Mus musculus with 12 samples.

Results

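Complement was followed through 9 genes in the heart cells of mice with and without desmin: C1qa, C1qb, C1qc, C3, C4b, Serping1, C3ar1, C5ar1 and Cd55. They were picked by symbol, as components, receptors and regulators of the cascade, with earlier results of these data known. All 9 were found among the 21493 genes counted in every library. All 9 were also among the 13158 genes with enough reads to be tested. The study asked how the absence of desmin, the muscle intermediate filament protein encoded by Des, changes gene expression in the adult heart at rest and under the mild stress of swimming.

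The 12 libraries were poly-A RNA of cardiomyocytes isolated from the hearts of 3-month-old mice by perfusion with trypsin and collagenase. They formed 4 groups of 3 libraries: Des+/+ non-swim and Des-/- non-swim (mice that did not swim), and Des+/+ swim and Des-/- swim (mice that had swum). Des+/+ mice carry the normal gene and Des-/- mice lack functional desmin in every tissue, so the comparison is not limited to cardiomyocytes. Each library held cells of several mice, and neither strain nor sex is given in the labels. The isolation enriches cardiomyocytes and does not remove other heart cells.

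Complement is a cascade of plasma proteins that tags particles for uptake and draws in immune cells. In the classical pathway, C1q binds antibody or a damaged surface and switches on the proteases C1r and C1s, which cleave C4 and C2, and all pathways meet at the cleavage of C3. The fragments C3a and C5a act through the receptors encoded by C3ar1 and C5ar1, while the C1 inhibitor encoded by Serping1 and the membrane protein CD55 hold the cascade back. Most circulating complement is made in the liver. C1q is made mainly by macrophages and related myeloid cells, and fibroblasts and other tissue cells can also make several components.

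The A, B and C chains of C1q are encoded side by side on chromosome 4 of GRCm38, all on the minus strand. C1qb lay at chr4:136880129-136886187, C1qc at chr4:136889804-136893065 and C1qa at chr4:136895917-136898803. The cluster spanned 18675 bases, with gaps of 3616 and 2851 bases between neighbours. C3 and C4b lay apart on chromosome 17 (chr17:57203970-57228136 and chr17:34728380-34743882). Upstream sequence is shown for C1qb and C1qc, because the C1q chains were all called higher without desmin, and for C3, the most heavily counted member. The stretches are RefSeq sequence of GRCm38.p6, written along the gene strand and ending where the RefSeq or GENCODE gene begins, whichever lies further upstream. They cover chr4:136886201-136886450, chr4:136893066-136893164 and chr17:57228137-57228386. Capitals mark a match to GAGGAA (the core letters bound by PU.1, a factor of myeloid cells) in either orientation in C1qb and C1qc, and to TTNNGNAAT, a C/EBP motif, in C3.
C1qb: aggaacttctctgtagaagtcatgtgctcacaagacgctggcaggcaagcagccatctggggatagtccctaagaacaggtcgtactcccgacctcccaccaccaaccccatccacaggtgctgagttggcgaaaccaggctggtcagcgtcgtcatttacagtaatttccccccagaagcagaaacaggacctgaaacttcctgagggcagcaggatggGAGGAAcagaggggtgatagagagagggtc
C1qc: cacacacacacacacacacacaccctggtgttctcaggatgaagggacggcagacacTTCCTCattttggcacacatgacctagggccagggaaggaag
C3: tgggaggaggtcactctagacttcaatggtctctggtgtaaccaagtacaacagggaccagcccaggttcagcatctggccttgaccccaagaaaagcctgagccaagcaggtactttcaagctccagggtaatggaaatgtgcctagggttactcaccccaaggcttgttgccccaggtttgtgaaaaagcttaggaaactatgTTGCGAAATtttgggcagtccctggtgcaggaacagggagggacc
GAGGAA stood 30 bases before the RefSeq start site of C1qb and, as TTCCTC, 193 bases before that of C1qc. The C1qc stretch shown ends at the GENCODE start, which lies upstream of the RefSeq start. It was found in 28.3% of 32851 mouse promoter windows from 250 bases before to 50 after the start, so a match is common. The C/EBP letters stood 45 bases before the start of C3 and were found in 11.5% of the windows. Of the 6 members with a window (C1qb, C1qc, C3, C3ar1, C5ar1 and Cd55), only those printed held a match. An NF-kB motif searched as well matched only in C1qc, and in 4.5% of the windows. It stood 41 bases before the RefSeq start, which is inside the GENCODE gene and outside the stretch shown. These matches are letters in a window and no measure of binding.

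Assigned reads ran from 4320819 to 12072443 a library, so a gene without a read could still have reached 0.656 CPM in the shallowest, taking 3 reads as the limit. The 3 Des-/- swim libraries were the shallowest, at 4320819 to 6521963 assigned reads, against 7425291 or more in every other library. In all 3, reads that fell in no counted gene (7890198 to 9160892) outnumbered the assigned reads. This also held for replicate 3 of Des+/+ swim and replicate 1 of Des-/- non-swim. The part of depth and of assignment in the comparisons that use Des-/- swim was not tested. CPM is the usual read count per fixed library total, here with totals scaled between libraries. Des averaged 2367 ± 1137 CPM in Des+/+ non-swim, 1273 ± 336 in Des+/+ swim, 59.5 ± 11.3 in Des-/- non-swim and 96.5 ± 4.71 in Des-/- swim (SD, n = 3 each), and was lower in all 6 Des-/- libraries than in any Des+/+ library. Replicate 3 of both Des-/- groups stood at one end of the first principal component, which held 48.9% of the variance. The libraries also differed in cell type markers. The summed level of 8 cardiomyocyte markers was 56748 to 87114 CPM in Des+/+ non-swim and 5581 to 24406 CPM in Des-/- non-swim, and that of 12 macrophage markers was 218 to 323 and 386 to 3681 CPM. Values without one or both of those 2 libraries are therefore given beside the results that they moved most.

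All 9 genes were detected in every library. Set per kilobase of exon so that genes can be compared, Serping1 (86.3 ± 8.35 CPM per kilobase) and C3 (70.7 ± 5.76) led in Des+/+ non-swim, followed by C1qa (29.5 ± 7.26), C1qb (21.7 ± 6.45), C1qc (12.2 ± 3.46), C4b (7.03 ± 2.65), Cd55 (4.55 ± 1.10), C5ar1 (1.35 ± 0.461) and C3ar1 (1.20 ± 0.715). Neighbours in this order overlapped for C1qa and C1qb, for C4b and Cd55, and for C5ar1 and C3ar1. The length used was the union of all annotated exons. It exceeds the longest coding transcript of several members, most for C1qc (1931 bases) and Cd55 (4853). Their levels per kilobase would be higher by that transcript, and the order could change. In Des-/- non-swim, C3 came first at 323 ± 153 CPM per kilobase, ahead of Serping1 at 199.7 ± 39.9, although the ranges of this pair overlapped there. C3 ranked 398th to 487th among all genes by read count in Des+/+ non-swim and 20th to 88th in Des-/- non-swim.

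**Figure D1:**
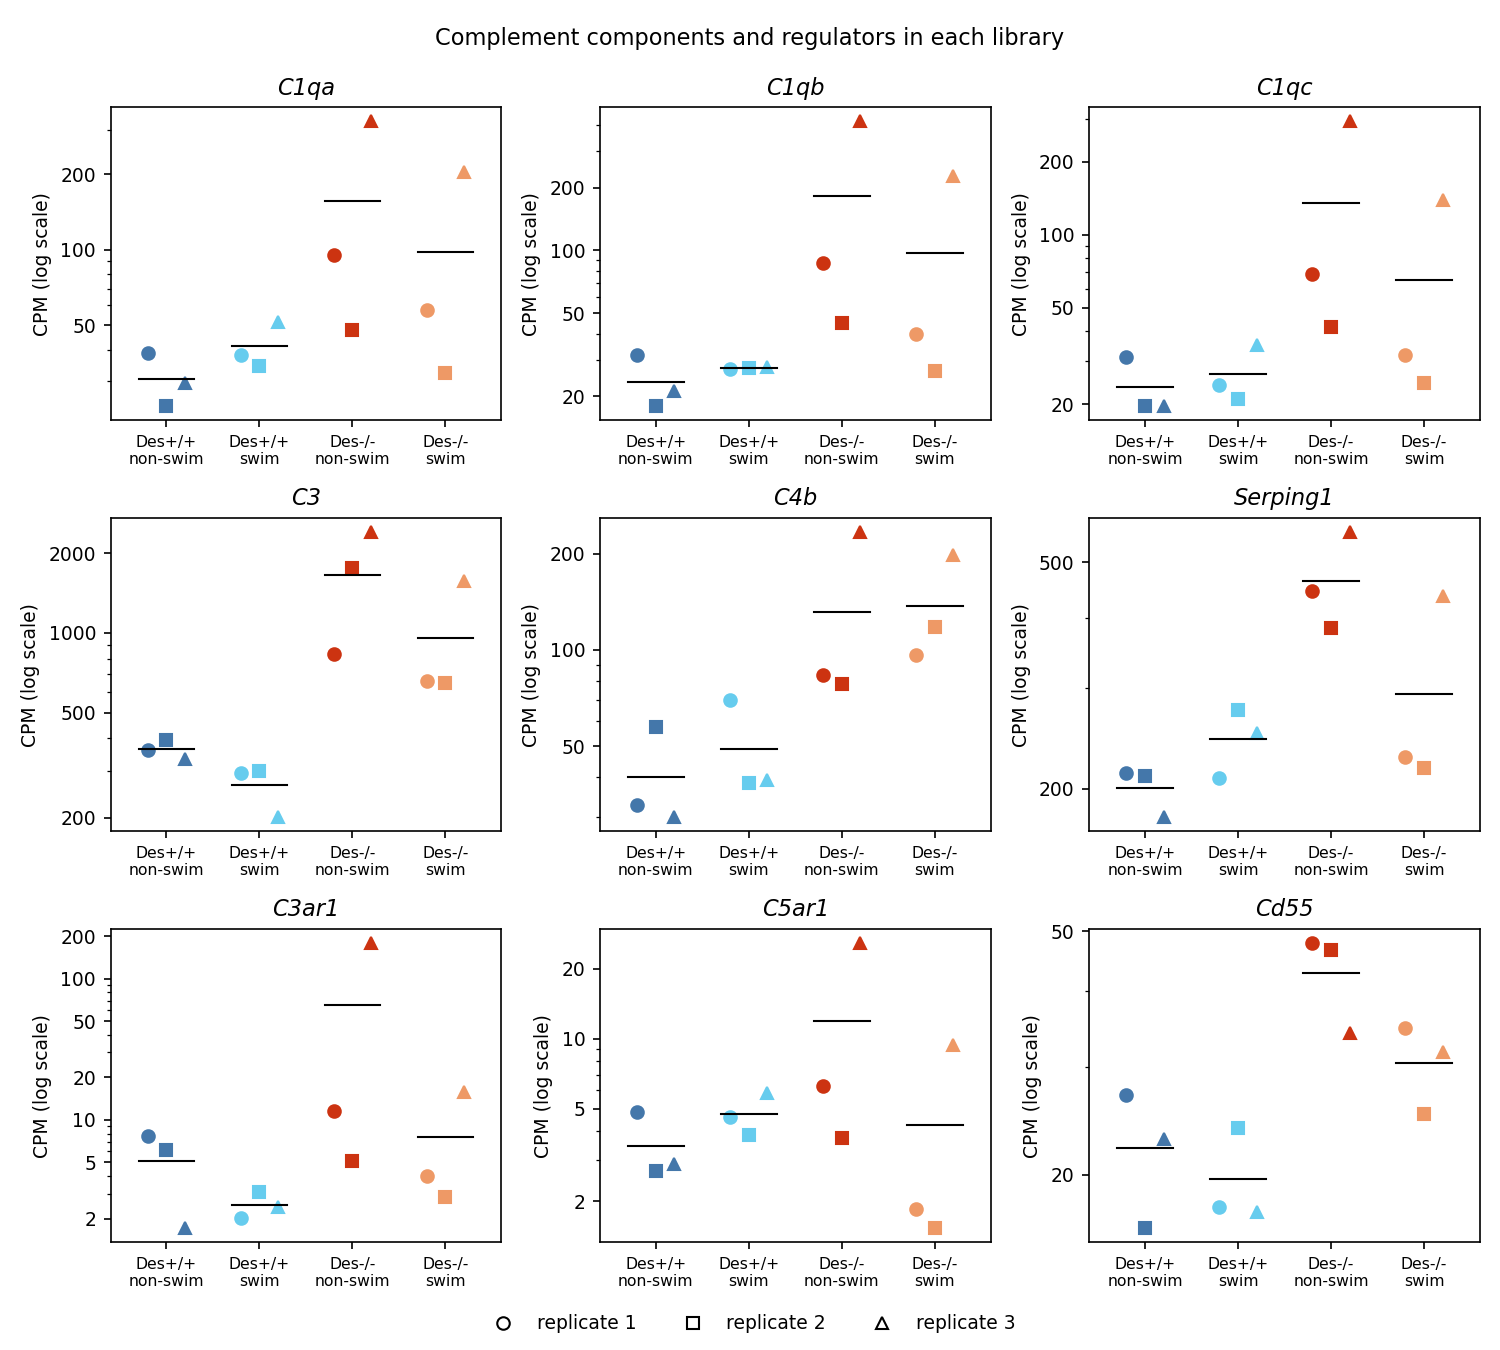
Level of each of the 9 complement genes in the 12 libraries, in CPM on a log axis. Marker shape gives the replicate and the black bar the group mean of 3 libraries. C3 in the Des-/- libraries runs from 645 to 2403 CPM, above all Des+/+ libraries, while the receptor panels are set apart mainly by replicate 3 of Des-/- non-swim.

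The C1q chains were higher without desmin in mice that had not swum. C1qa stood at 38.8, 23.8 and 29.3 CPM in the Des+/+ non-swim libraries and at 95.7, 47.7 and 325 CPM in those of Des-/- non-swim. C1qb stood at 31.5, 18.0 and 21.3 CPM against 87.4, 45.1 and 416 CPM. C1qc stood at 31.2, 19.6 and 19.7 CPM against 69.1, 41.4 and 294 CPM. The groups did not overlap for any chain, and replicate 3 lay far above the other two Des-/- libraries each time. C1qa rose by a log2 change of 2.35 ± 0.73 (SE; adjusted p = 0.0291), C1qb by 2.96 ± 0.88 (adjusted p = 0.0253) and C1qc by 2.52 ± 0.77 (adjusted p = 0.0270; edgeR). In bulk RNA, more cells that make C1q and more C1q RNA in each such cell cannot be told apart.

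In the swim groups the C1q levels overlapped. C1qa stood at 38.1, 34.3 and 51.7 CPM in Des+/+ swim and at 57.6, 32.4 and 204 CPM in Des-/- swim. The corresponding levels of C1qb were 27.2, 27.4 and 27.7 CPM against 39.7, 26.5 and 227 CPM, and those of C1qc were 24.0, 21.0 and 35.1 CPM against 31.8, 24.5 and 139 CPM. One library, replicate 3 of Des-/- swim, was far above all others, and replicate 2 lay within or below the Des+/+ swim range. The log2 differences of 1.25 ± 0.71, 1.84 ± 0.85 and 1.29 ± 0.75 did not pass the test (adjusted p = 0.252, 0.171 and 0.261). Without replicate 3 of Des-/- swim they were 0.13, 0.28 and 0.09.

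The proportions of the 3 chains varied less than their level. Their sum ran from 61.5 to 1035 CPM across the 12 libraries. As a share of the 3 chains per kilobase, C1qa made up 36.9 to 53.2%, C1qb 27.3 to 45.1% and C1qc 15.1 to 20.5%. The exon length used for C1qc (1931 bases) exceeds its longest coding transcript, by which its share would be larger. C1qb relative to C1qa was 0.694 to 0.776 in Des+/+ non-swim and 0.873 to 1.22 in Des-/- non-swim, without overlap, while the swim groups overlapped (0.513 to 0.762 and 0.658 to 1.06). These ratios describe the libraries and were not tested.

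C3, the protein on which all activation pathways converge, was the member with the clearest difference between genotypes. It stood at 362, 393 and 334 CPM in Des+/+ non-swim and at 833, 1753 and 2403 CPM in Des-/- non-swim. After swimming it stood at 296, 300 and 202 CPM in Des+/+ and at 657, 645 and 1577 CPM in Des-/-. The lowest of all 6 Des-/- libraries was above the highest of all 6 Des+/+ libraries. C3 rose by a log2 change of 2.19 ± 0.42 without swimming (adjusted p = 0.00323) and by 1.85 ± 0.42 after swimming (adjusted p = 0.0224). The ratio of group means was 4.58 without swimming and 3.61 after it.

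C4b, whose product is the C4 cleaved by C1s, stood at 32.7, 57.4 and 30.0 CPM in Des+/+ non-swim and at 83.4, 78.5 and 233 CPM in Des-/- non-swim. The groups did not overlap, and C4b rose by a log2 change of 1.72 ± 0.46 (adjusted p = 0.0157). After swimming it stood at 69.8, 38.5 and 39.3 CPM in Des+/+ and at 96.4, 118 and 198 CPM in Des-/-, again without overlap. That difference of 1.48 ± 0.46 did not pass the test (adjusted p = 0.0592). It passed under 8 of 24 alternatives, among them DESeq2 (adjusted p = 0.0103) and the fit without replicate 3 of both Des-/- groups, at 1.13 ± 0.29 (adjusted p = 0.0331). C4b has a near copy, C4a, and no gene of that symbol was among those counted. Reads that aligned to more than 1 place were set apart and not assigned to a gene. Of the 5280 windows of 100 bases in the C4b transcripts, 16.5% occur unchanged in C4a, so C4b counts are uncertain to that extent. No such window was shared for C1qa, C1qb, C1qc, C3, Serping1, C3ar1 or C5ar1.

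From all libraries, the regulators differed less between genotypes without swimming than the other members. This order rested on replicate 3 of Des-/- non-swim. Without it, C4b (log2 change 1.02), C3ar1 (0.72) and C5ar1 (0.54) lay below Serping1 (1.05), while C3 and the C1q chains stayed above. Over all 12 libraries the highest level was 3.17 times the lowest for Serping1 and 2.92 times for Cd55, against 7.77 times or more for the other members. That range also takes in swimming and the spread within groups. Serping1, the inhibitor of C1r and C1s, stood at 213, 210.4 and 178 CPM in Des+/+ non-swim and at 445, 383 and 565 CPM in Des-/- non-swim. It rose by a log2 change of 1.21 ± 0.26 (adjusted p = 0.00562), and the lowest Des-/- library was 1.80 times the highest Des+/+ library. After swimming it stood at 209, 275 and 250.3 CPM in Des+/+ and at 228, 217 and 436 CPM in Des-/-. These groups overlapped, with a log2 difference of 0.26 ± 0.26 (adjusted p = 0.514), and of -0.13 without replicate 3 of both Des-/- groups.

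Cd55, whose product speeds the decay of the enzymes that cleave C3 and C5, stood at 27.0, 16.4 and 22.9 CPM in Des+/+ non-swim and at 47.8, 46.5 and 34.1 CPM in Des-/- non-swim. It rose by 0.95 ± 0.22 (adjusted p = 0.00766). Cd55 was the only member that was lowest, not highest, in replicate 3 of Des-/- non-swim within its group. After swimming it stood at 17.7, 23.9 and 17.4 CPM in Des+/+ and at 34.7, 25.1 and 31.7 CPM in Des-/-, which did not overlap, with a log2 difference of 0.64 ± 0.22 (adjusted p = 0.0830). Of the Cd55 windows of 100 bases, 6.86% occur unchanged in its copy Cd55b, which had 0 to 2 reads in each library. The exons of Cd55 overlap an antisense gene, and the reads were counted on 1 strand.

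The receptors were the least counted members in the Des+/+ libraries. C3ar1, the C3a receptor of myeloid cells, stood at 7.66, 6.08 and 1.71 CPM in Des+/+ non-swim and at 11.6, 5.10 and 178 CPM in Des-/- non-swim. The groups overlapped, and the log2 change of 3.68 ± 1.17 (adjusted p = 0.0323) was carried by replicate 3. Without that library it was 0.72 ± 0.71 (adjusted p = 0.494). After swimming C3ar1 stood at 2.01, 3.10 and 2.42 CPM in Des+/+ and at 3.98, 2.84 and 15.9 CPM in Des-/-, a difference of 1.60 ± 1.24 (adjusted p = 0.405). It was 0.46 without replicate 3 of Des-/- swim or of both Des-/- groups.

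C5ar1, the C5a receptor, stood at 4.83, 2.69 and 2.89 CPM in Des+/+ non-swim and at 6.27, 3.74 and 25.8 CPM in Des-/- non-swim. The groups overlapped, and the difference of 1.79 ± 0.76 missed the threshold (adjusted p = 0.0920) and was 0.54 without replicate 3 of Des-/- non-swim. After swimming it stood at 4.61, 3.85 and 5.83 CPM in Des+/+ and at 1.85, 1.53 and 9.39 CPM in Des-/-, where the Des-/- libraries lay on both sides of the Des+/+ libraries. That difference was -0.14 ± 0.77 (adjusted p = 0.919), and -1.46 ± 0.44 without replicate 3 of both Des-/- groups (adjusted p = 0.0548).

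Without swimming, 8 of the 9 members were called higher in Des-/- at an adjusted p under 0.05 and 0 lower, while 32% of all tested genes were called, 14% higher and 18% lower. The member outside was C5ar1. The libraries of the 2 genotypes did not overlap for 7 members, all higher in Des-/-, against 23% of all genes. The log2 change was above 0 for all 9 members and for 52.6% of all genes, and its median was 2.19 over the members and 0.04 over all genes. After swimming, 1 member, C3, was called higher, against 10.6% of all genes called, 5.01% higher and 5.57% lower. C3, C4b and Cd55 did not overlap after swimming, all higher, against 17.3% of all genes. The median was 1.29 over the members and 0.02 over all genes. Because the members were chosen with earlier results of these data known, these comparisons with all genes are descriptive and no test of the set. With the limits of the study's methods (0.6 on the log2 scale, 20 reads on average and a p of 0.05, applied here to the unadjusted p, since the methods do not say whether it was adjusted), 9 members passed without swimming and 3 after it, against 32% and 17.6% of all genes. Loss of the call after swimming in the other members is not a test that the genotype effect differed, which is given further on as the interaction.

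**Figure D2:**
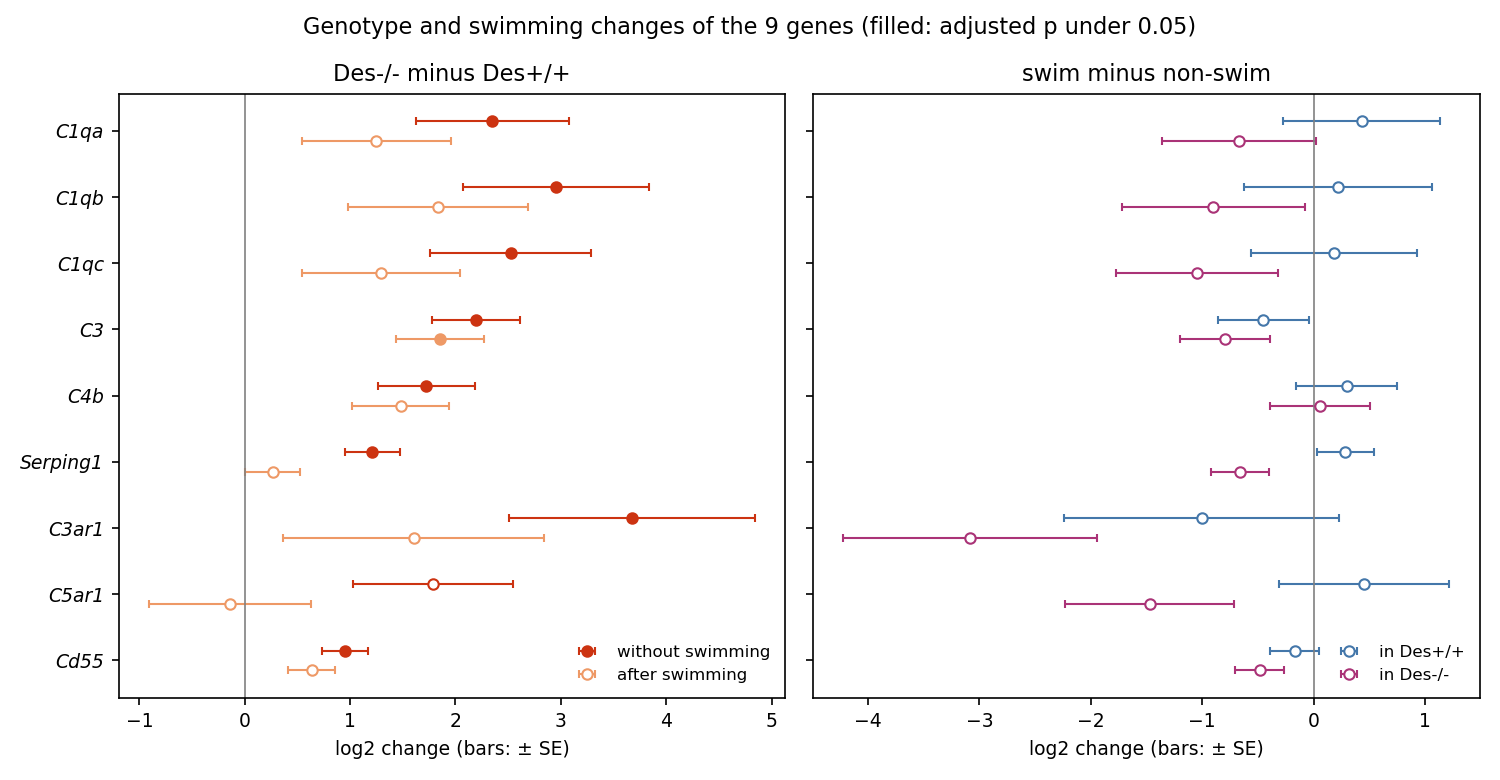
Fitted log2 change of the 9 genes between genotypes (left panel, with and without swimming) and with swimming (right panel, in each genotype). Bars are the SE and filled points have an adjusted p under 0.05. On the left, 8 points are filled without swimming and only that of C3 after swimming, and on the right none is filled.

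How far the calls without swimming rest on replicate 3 of Des-/- non-swim differed between members. Without that library, 3 members were called: C3 at 1.83 ± 0.39 (adjusted p = 0.00811), Serping1 at 1.05 ± 0.27 (adjusted p = 0.0172) and Cd55 at 1.10 ± 0.22 (adjusted p = 0.00643). The C1q chains were then at 1.24 ± 0.58, 1.50 ± 0.69 and 1.24 ± 0.59 for C1qa, C1qb and C1qc (adjusted p = 0.154, 0.142 and 0.153), and C4b was at 1.02 ± 0.35 (adjusted p = 0.0602). With replicate 3 of both Des-/- groups left out, which also narrows the spread shared by all groups, 7 members were called. C1qa was then at 1.29 ± 0.32 (adjusted p = 0.0135), C1qb at 1.55 ± 0.29 (adjusted p = 0.00340), C1qc at 1.30 ± 0.29 (adjusted p = 0.00745) and C4b at 1.09 ± 0.29 (adjusted p = 0.0176). The other two Des-/- non-swim libraries alone thus also held more of the C1q chains than the 3 Des+/+ libraries. C3ar1 and C5ar1 were not called (0.78 and 0.60). The count also fell to 3 without Des+/+ non-swim replicate 1 or without replicate 3 of that group, and to 4 without its replicate 2. Over all genes, calls with 1 library left out ran from 2612 (without Des+/+ non-swim replicate 2) to 4590 (without Des-/- swim replicate 3). They numbered 4210 from all 12 libraries. The falls in the member count were not separated from this general movement of calls. C3, Serping1 and Cd55 were called under all 24 alternatives, with log2 changes of 1.83 to 2.51, 1.05 to 1.46 and 0.78 to 1.20.

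**Figure D3:**
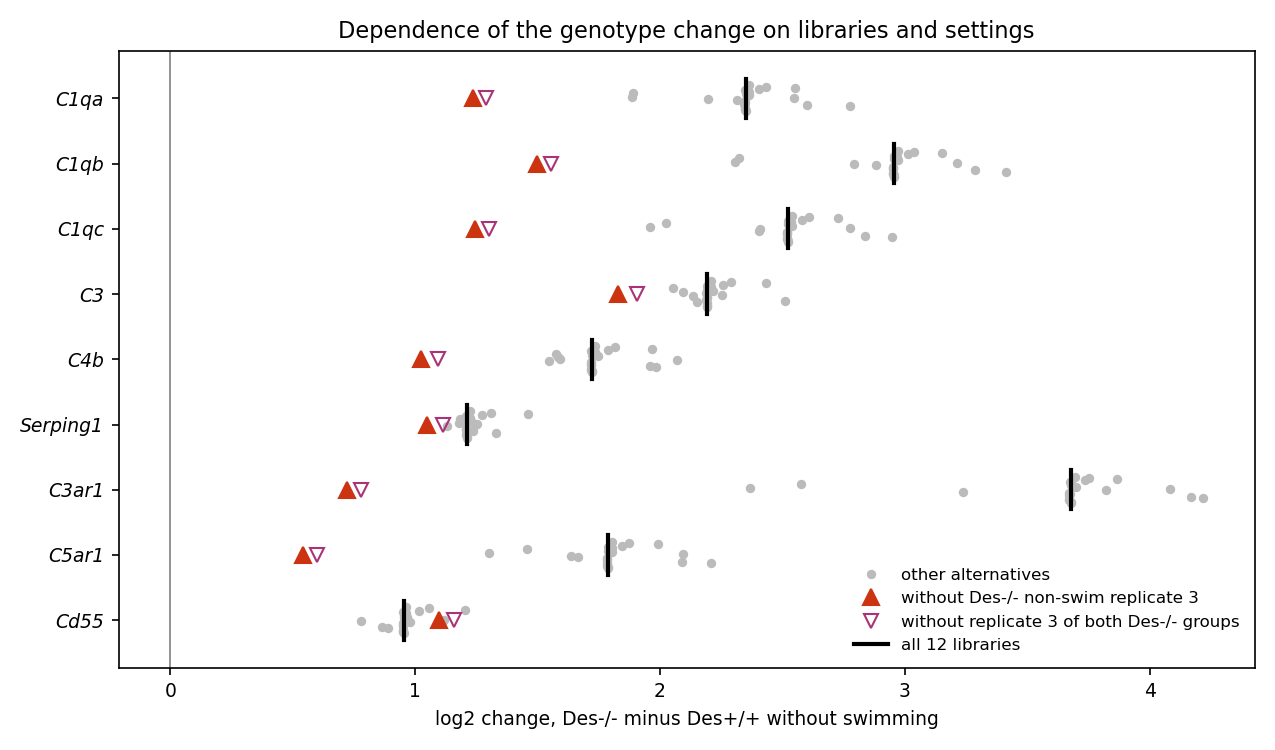
Log2 change of each of the 9 genes between genotypes without swimming, under the 24 alternative settings. The black bar is the value from all 12 libraries, the filled red triangle leaves out replicate 3 of Des-/- non-swim, and the open triangle leaves out replicate 3 of both Des-/- groups. C3ar1 moves from 3.68 to 0.72 and C1qb from 2.96 to 1.50, while Cd55 moves from 0.95 to 1.10.

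After swimming the call of C3 also rested on single libraries. It was lost without Des+/+ swim replicate 1 (adjusted p = 0.0572), without Des+/+ swim replicate 3 (adjusted p = 0.0937) and without Des-/- swim replicate 3, which left 1.29 ± 0.35 (adjusted p = 0.0586). The log2 change stayed between 1.29 and 2.07 over all alternatives. C3 was called at 1.30 ± 0.28 with replicate 3 of both Des-/- groups left out (adjusted p = 0.0204).

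Swimming itself changed no member at the threshold in either genotype. In Des+/+ mice 0 of 9 members were called, against 0.0912% of all genes, and 0 had an unadjusted p under 0.05 in edgeR. DESeq2 also called 0. The members' log2 differences ran from -1.01 for C3ar1 to 0.46 for C5ar1, with a median of 0.22 against -0.08 over all genes. C3 was lower in all 3 Des+/+ swim libraries than in the Des+/+ non-swim libraries, at -0.45 ± 0.40 (adjusted p = 0.553), and 18.7% of all genes were lower without overlap in this comparison.

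In Des-/- mice 0 of 9 members were called after swimming, against 0.0228% of all genes, and DESeq2 called 0 as well. Unadjusted p-values in edgeR were under 0.05 for 3 members. These were C3ar1 at -3.08 ± 1.14, Serping1 at -0.66 ± 0.26 and Cd55 at -0.48 ± 0.22, each with an overlap of the groups and an adjusted p of 0.239, 0.255 and 0.294. Without replicate 3 of Des-/- non-swim, C3ar1 was at -0.13 (adjusted p = 0.970), and without replicate 3 of both groups at -1.25 (adjusted p = 0.369). The differences of 8 members were below 0, and the exception was C4b at 0.06 ± 0.45. The Des-/- libraries were also matched by replicate number, although no pairing is stated for them. These 8 members were then lower after swimming in all 3 pairs, as were 24.5% of all genes. The fit with a replicate block over all groups also called 0 members. The C1q differences were -0.67, -0.90 and -1.05 for C1qa, C1qb and C1qc. They were -0.64, -0.97 and -0.95 with the pair of replicate 3 left out, and 0.45, 0.56 and 0.24 with only its non-swim library left out. The share of all genes with a difference above 0 was 48.5%.

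The interaction, the swimming difference in Des-/- minus that in Des+/+, was below 0 for all 9 members, while 52.6% of all genes were above 0. It ran from -2.07 ± 1.67 for C3ar1 to -0.24 ± 0.64 for C4b, and 0 members passed, against 0% of all genes. The unadjusted p in edgeR was under 0.05 for 1 member, Serping1, at -0.95 ± 0.36 (adjusted p = 0.247). DESeq2 called 0 members. Without replicate 3 of Des-/- non-swim, 6 members, the C1q chains, C3, C4b and C3ar1, were above 0. With replicate 3 of both Des-/- groups left out, C4b alone was above 0, at 0.039, while C1qa, C1qb and C1qc were at -1.14, -1.27 and -1.20, C3 at -0.61 and C3ar1 at -0.32. The interaction reuses the same libraries as the genotype and swimming comparisons, so its direction is not separate evidence. With the study's limits and an unadjusted p, 0 members passed for swimming in Des+/+, 2 for swimming in Des-/- and 1 for the interaction, against 10.3%, 8.6% and 13% of all genes.

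Marker genes of several cell types also differed between genotypes. Without swimming, 7 of 12 macrophage markers and 9 of 10 fibroblast markers were called higher in Des-/-, against 14% of all genes. Of the cardiomyocyte markers 8 of 8 were called lower, against 18% of all genes, and 0 of 8 endothelial markers were called. After swimming, 1 of 12 macrophage and 1 of 10 fibroblast markers were called higher, against 5.01% of all genes. Then 1 of 8 cardiomyocyte markers was called lower, against 5.57%, and 0 endothelial or erythrocyte markers were called. Summed fibroblast markers were 6260 to 7578 CPM in Des+/+ non-swim, 5421 to 6788 in Des+/+ swim, 12851 to 43324 in Des-/- non-swim and 8762 to 16451 in Des-/- swim. Summed macrophage markers were 274 to 302 CPM in Des+/+ swim and 237 to 1063 CPM in Des-/- swim. Of 5 erythrocyte markers 4 were tested, and all 4 were called higher in Des-/- non-swim. Their sum was 142 to 457 CPM in Des+/+ non-swim, 1147 to 1930.2 in Des+/+ swim, 1216 to 3779.5 in Des-/- non-swim and 412 to 2340.3 in Des-/- swim. No macrophage marker was at 0 in any library. Hepatocytes are the main source of plasma C3, and their 5 markers were close to 0, summing to at most 1.14 CPM in any library. Lymphocyte markers summed to at most 9.03 CPM and neutrophil markers to at most 55.8 CPM, in replicate 3 of Des-/- non-swim. The part of the cells so marked in the complement results was not tested.

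**Figure D4:**
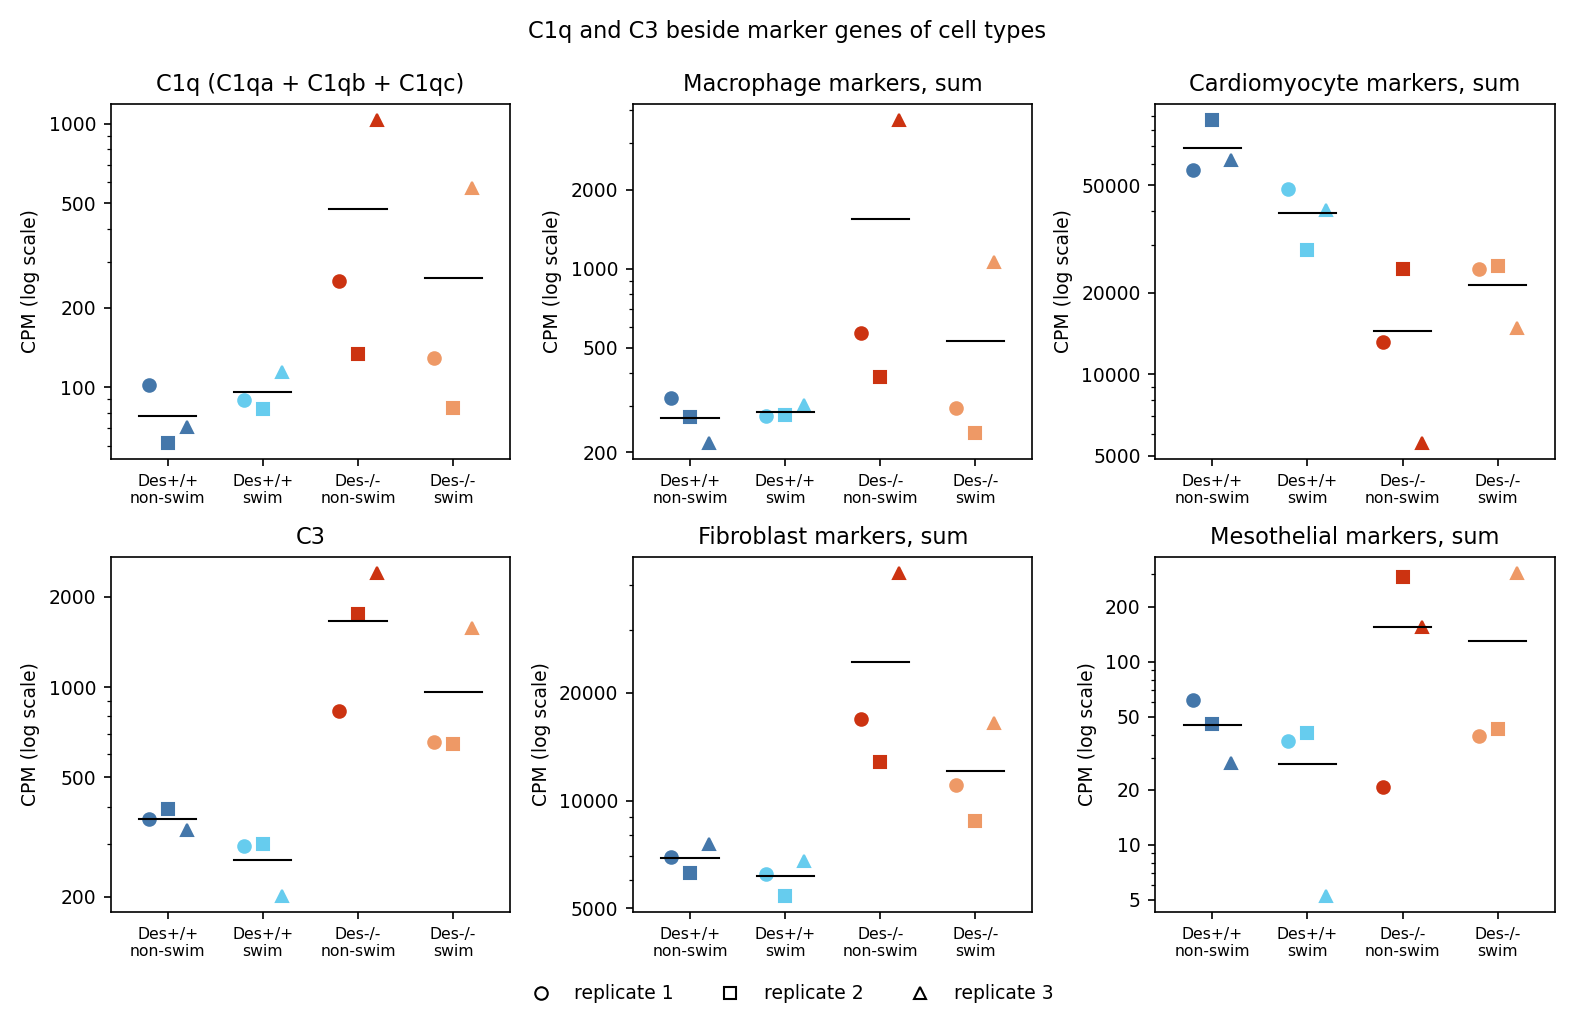
Summed level of the 3 C1q chains and level of C3 (left column) beside the summed marker genes of 4 cell types, in CPM on log axes. Marker shape gives the replicate and the black bar the mean of 3 libraries. C1q and the macrophage markers are both highest in replicate 3 of Des-/- non-swim, at 1035 and 3681 CPM, and next highest in replicate 3 of Des-/- swim.

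C1q and C3 were also set against these markers in each library. The C1q sum was 22.5 to 32.3% of the macrophage marker sum in Des+/+ non-swim, 29.7 to 38.0% in Des+/+ swim, 28.1 to 44.2% in Des-/- non-swim and 35.2 to 53.6% in Des-/- swim. Every pair of these ranges overlapped except that of Des+/+ non-swim and Des-/- swim. C3 was 4.41 to 6.29% of the fibroblast marker sum in Des+/+ non-swim and 4.91 to 13.6% in Des-/- non-swim, which overlapped. After swimming it was 2.97 to 5.54% in Des+/+ and 5.93 to 9.59% in Des-/-, which did not.

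The mesothelial markers label the outer lining of the heart. Their sum was highest in replicates 2 and 3 of Des-/- non-swim (291 and 154 CPM) and replicate 3 of Des-/- swim (306 CPM). These libraries also held the most C3. In replicate 1 of Des-/- non-swim (20.7 CPM) and replicates 1 and 2 of Des-/- swim (39.5 and 42.9 CPM) it lay within the 2 Des+/+ groups together (5.27 to 61.6 CPM), although C3 was higher there than in any Des+/+ library. Against Des+/+ swim alone (5.27 to 40.7 CPM), replicate 2 of Des-/- swim lay above. Against Des+/+ non-swim alone (28.1 to 61.6 CPM), replicate 1 of Des-/- non-swim lay below. Msln stood at 5.10, 77.6 and 55.5 CPM in Des-/- non-swim and at 11.8, 14.0 and 114 CPM in Des-/- swim, against 1.71 to 16.6 CPM in the Des+/+ libraries. Upk3b stood at 9.67, 123 and 46.4 CPM in Des-/- non-swim, and in both genes replicate 1 lay within the range of the Des+/+ libraries. The 5 mesothelial markers tested were not called in either genotype comparison. All 5 were above 0 in both, with a median log2 change of 1.85 without swimming and 2.16 after it, against 0.04 and 0.02 over all genes. After swimming 3 did not overlap, all higher, against 17.3% of all genes, and without swimming 0 did. Their part in the C3 result was not tested.

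Genes with the most similar profile over the 12 libraries were found by the root mean square difference of centred log2 CPM, leaving the members out. The closest to C1q were Laptm5 (0.26), Ncf1 (0.28), Irf5 (0.28), Matk (0.29) and Cyth4 (0.29), while the median over all tested genes was 1.24. Among the members, C5ar1 lay at 0.63 from C1q, C4b at 0.74, C3 at 0.75, Serping1 at 0.77 and C3ar1 at 0.84. Cd55 was the furthest at 1.02. The closest to C3 were Ipcef1 (0.30), Adgrb2 (0.33), Aebp1 (0.34), Gxylt2 (0.35) and Ildr2 (0.36), against a median of 1.15. The closest to C4b were Dlg2 (0.31), Wfikkn1 (0.32), Col27a1 (0.34), Alpk1 (0.34) and Efemp2 (0.37), against a median of 0.98. C3 and C4b, which lie on the same chromosome, differed by 0.61.

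Of 45 other complement genes listed by role, 43 were in the files and 29 had enough reads to be tested. Without swimming, 7 were called higher in Des-/- and 1 lower, 27.6% of those tested against 32% of all genes, with a median log2 change of 0.57 against 0.04. Of all genes, 14% were called higher and 18% lower. The log2 change was above 0 for 16 of the 29, against 52.6% of all genes. The share called was below that of all genes, so the genes named next are single results and no result about the list. Among the proteases of the classical pathway, C1ra (log2 change 1.17 ± 0.28, adjusted p = 0.00887) and C1s1 (1.03 ± 0.26, adjusted p = 0.0134) rose. C1ra stood at 38.9, 38.8 and 41.6 CPM in Des+/+ non-swim and at 86.1, 68.6 and 113 CPM in Des-/- non-swim. Their near copies C1rb and C1s2 were not called, and reads shared between copies were not measured.

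In the alternative pathway, Cfb, the protease part of its C3 convertase, rose by 2.21 ± 0.64 (adjusted p = 0.0216), and Cfp, which encodes the stabiliser properdin, by 1.98 ± 0.54 (adjusted p = 0.0166). Cfb stood at 12.1, 8.65 and 7.76 CPM against 22.0, 18.1 and 91.5 CPM. The groups did not overlap for Cfb and overlapped for Cfp. Cfb was at 1.09 (adjusted p = 0.114) and Cfp at 0.94 (adjusted p = 0.0687) without replicate 3 of Des-/- non-swim.

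Among receptors, the integrin subunits of complement receptors 3 and 4, Itgam, Itgax and Itgb2, were called higher. Itgb2 stood at 7.78, 8.06 and 7.49 CPM in Des+/+ non-swim and at 16.2, 15.6 and 163 CPM in Des-/- non-swim (log2 change 3.06 ± 0.84, adjusted p = 0.0175). Itgb2 was at 1.03 without replicate 3 of Des-/- non-swim (adjusted p = 0.109). Itgam changed by 2.95 ± 0.91 (adjusted p = 0.0287) and by 0.69 without replicate 3 of Des-/- non-swim (adjusted p = 0.348). Itgax had 2, 6 and 6 reads in Des+/+ non-swim and 36, 23 and 1252 in Des-/- non-swim (adjusted p = 0.0162), and was not called without that library (adjusted p = 0.117).

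The single gene called lower was Cd59a, whose product blocks the membrane attack complex on the cell surface. It stood at 75.3, 20.5 and 56.5 CPM in Des+/+ non-swim and at 15.5, 14.4 and 11.0 CPM in Des-/- non-swim, without overlap, and fell by 1.90 on the log2 scale (SE 0.56, adjusted p = 0.0232). Of these 8 genes, C1ra was called under every alternative run, and C1s1 under 23 of 24. Without replicate 3 of Des-/- non-swim, 2 of the other complement genes were called, and without replicates 1, 2 and 3 of Des+/+ non-swim in turn, 5, 3 and 1 were.

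After swimming, 0 of the 29 were called in edgeR, against 10.6% of all genes, although 6 had an unadjusted p under 0.05 and DESeq2 called 5. The smallest adjusted p in edgeR was 0.0664, for Cfb at 2.01 ± 0.65. Swimming called 0 of the 29 in Des+/+ mice and 0 in Des-/- mice in edgeR, with 2 and 9 at an unadjusted p under 0.05, while DESeq2 called 0 and 5.

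**Figure D5:**
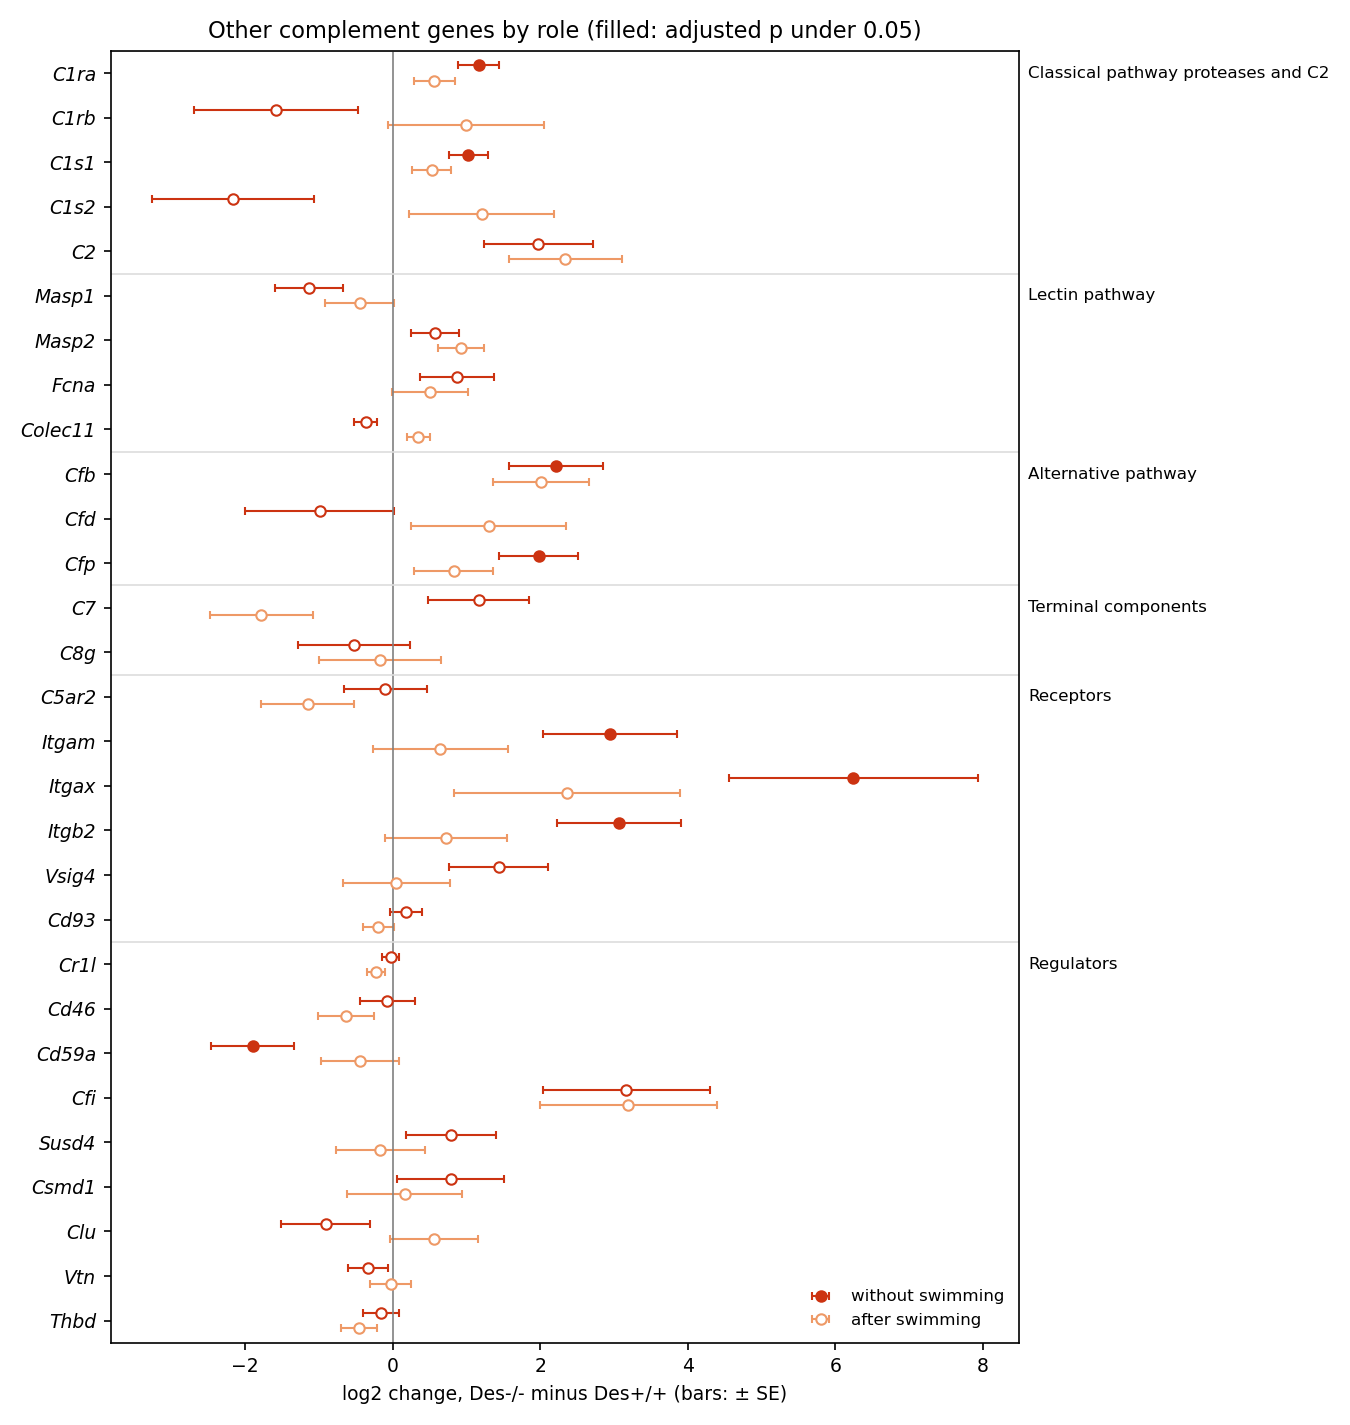
Fitted log2 change between genotypes for the 29 other complement genes tested, grouped by role, without swimming (dark) and after swimming (light). Bars are the SE and filled points have an adjusted p under 0.05. Without swimming 8 points are filled, 7 to the right of 0 and that of Cd59a at -1.90, and after swimming none is filled.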

How the data were processed

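Per the labels and the study's methods, single-end reads were aligned to GRCm38 (mm10) with HISAT2 2.2.1, sorted with SAMtools 1.13, and counted per gene by HTSeq on the reverse strand. The labels and the methods name different library kits, of which only that in the methods marks strand. The deposited files hold raw read counts, with no normalization by the authors, and 1 file per library. From these counts edgeR 4.0.16 (R 4.3.3) fitted 4 group means over all 12 libraries, with TMM scaling and filterByExpr, and the quasi-likelihood test was adjusted by Benjamini-Hochberg over 13158 genes. Genes were called at an adjusted p under 0.05. Log2 changes are fitted values with their SE, and levels are CPM over scaled totals. DESeq2 1.42.0, limma-voom (limma 3.58.1), other scalings and filters, leaving out libraries, and the study's filter (log2 change of 0.6, mean count of 20, p of 0.05, applied here to unadjusted p-values) were alternatives. No pair among 66 pairs of libraries had identical counts. Whether libraries were prepared separately is not given, so p-values measure only the spread between these libraries.

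The members and lists were chosen with earlier results of these data known. All 9 members, the targeted gene, the called genes of a list of 45 other complement genes, the paralogs C4a and Cd55b, and the 5 nearest profiles to C1q, C3 and C4b are named. 1 further gene of that list is not reported here. Replicate numbers are shared by the groups. Deviations from group means of same-numbered libraries correlated at 0.365, 0.316 and 0.602 between the Des-/- groups, over 0.1 for all 3 numbers, and the other pairs of groups did not reach that for all numbers. Within Des-/- the libraries were therefore also matched by number, for description only, since neither the sample titles nor the methods state a pairing. The fit with a replicate block set a shared effect of each number across all 4 groups, so it is no test of a pairing within Des-/-. It called 0 members for swimming in Des-/-, as did the fit without it. Gene lengths and positions came from GENCODE M21, and promoter windows from RefSeq for 6 of the 9 members. The fit was tested on simulated data with few changed genes, for the genotype comparison without swimming. It recovered 23 of 98 genes changed by 1 on the log2 scale and 80 of 99 changed by 2. Of 12849 unchanged genes, 6 were called. Many changes of about 1 would thus be missed under that setting. The limit of detection covers counting error only, while the SE and SD include the spread between libraries.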

Additional observations from a re-analysis of the deposited data

How the results depend on the processing

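Leaving out 1 library at a time gave 3 to 9 members called without swimming (8 from all libraries) and 1 to 11 of the other complement genes (8), and limma-voom gave 4 and 3. After swimming the range was 0 to 2 members (1) and 0 to 2 other complement genes (0). Members called after swimming were 2 with upper-quartile scaling, no scaling, DESeq2, the 6 libraries compared or replicate 3 of both Des-/- groups left out, and 3 with the study's filter. Other complement genes called after swimming were 1 with no scaling, 5 with DESeq2, 1 with the 6 libraries compared, 3 without replicate 3 of both Des-/- groups and 5 with the study's filter. For swimming in Des+/+, that pair of libraries left out gave 1 other complement gene and the study's filter 2. For swimming in Des-/-, DESeq2 gave 5, that pair left out 2, the study's filter 9 (and 2 members), and leaving out 1 library 0 to 2. For the interaction, DESeq2 gave 1 other complement gene, and the study's filter gave 3 and 1 member. The cause of these differences was not tested, except that the study's filter was applied here with unadjusted p-values.

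With a replicate block, 7 members were called without swimming, C3ar1 being lost at 2.37 (adjusted p = 0.144). The block changed no other call of a member.

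Some differences below the threshold changed sign with 1 library left out, and their ranges over such libraries follow. After swimming, Serping1 ran from -0.14 to 0.44 and C5ar1 from -1.47 to 0.23. For swimming in Des+/+, C1qc ran from -0.064 to 0.44 and C4b from -0.040 to 0.65. For swimming in Des-/-, C1qa ran from -1.79 to 0.45, C1qb from -2.46 to 0.56, C1qc from -2.26 to 0.24 and C4b from -0.30 to 0.77. For the interaction, C1qa ran from -2.22 to 0.0068, C1qb from -2.68 to 0.32, C1qc from -2.44 to 0.043, C3 from -0.90 to 0.012, C4b from -0.60 to 0.45 and C3ar1 from -3.22 to 0.86. The highest C1q, C3, C4b and C3ar1 values of the last 2 comparisons came without Des-/- non-swim replicate 3. Without replicate 3 of both Des-/- groups Serping1 was -0.13 after swimming and C4b 0.039 in the interaction, and with no scaling C5ar1 was 0.0067 after swimming.

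Over all genes, calls without swimming numbered 2612 to 4590 with 1 library left out (4210 from all), and after swimming 74 to 2142 (1392), 2332 with DESeq2 and 2313 with the study's filter. For swimming in Des+/+ (12 calls) the counts were 0 to 155 with 1 library left out, 54 with RLE scaling, 26 with no scaling, 58 with no filter, 812 with DESeq2, 282 with 6 libraries, 19 with the block, 743 without the pair and 1358 with the study's filter. For swimming in Des-/- (3) they were 0 to 51, 7 with no filter, 339 with DESeq2, 0 with 6 libraries, 72 without the pair and 1132 with the study's filter. For the interaction (0) DESeq2 gave 328 and the study's filter 1704. Upper-quartile scaling moved the median of all genes by 0.10 and no scaling by 0.26 without swimming, and the share of calls that were higher was 43.7% with TMM, 55.1% and 69.9%. After swimming that share was 47.3%, 67.5% and 77.1%. C3ar1 and C5ar1 rest on the fewest reads.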
